A study of Salmo salar with 9 samples.

Results

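The transcription factors that steer blood cell formation were followed in the head kidney of 9 Atlantic salmon (Salmo salar), through every contig whose description carried the name of one of 10 such factors. A contig is a stretch of cDNA that the authors assembled from their own reads, and it was counted as a member when its counts summed to at least 20 over the 9 fish. Of 87600 contigs, 48 were members. All 48 had passed the minimum of counts, and 87238 of all contigs did. The fish had eaten 1 of 3 diets for 42 days. They were a control feed based on fishmeal (FMC), a feed holding the brown seaweed Laminaria digitata at 10% (SW1) and a feed holding the commercial seaweed blend Oceanfeed at 10% (SW2). There were 3 sequenced fish per diet, and each was taken from a different tank of group-housed fish. All 9 fish, controls included, had received an injection of lipopolysaccharide (LPS, from Escherichia coli) into the body cavity, at 6 mg per kg, with sampling 68 to 70 h afterwards. Fish without LPS were not analysed here, so the levels below are those of challenged fish, and the comparisons are between diets.

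Fish have no bone marrow, and the head kidney takes its place as the main blood-forming organ, with stem cells and the precursors of red cells, granulocytes, macrophages and lymphocytes lying side by side. What a precursor becomes is set by transcription factors that act in combination and partly against each other. The roles given here are those known from mammals, mostly mice. RUNX1 and Myb are needed for blood stem cells, and PU.1 and the C/EBP proteins drive the myeloid branch. Gfi-1 and Gfi-1b repress other genes, and they are needed for the granulocyte branch and for the red cell and platelet branch in that order. Ikaros opens the lymphoid branch, and GATA-1, GATA-2 and GATA-3 serve red cells, stem cells and T cells in that order.

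Of the 10 names, 7 matched at least 1 contig. The stem cell regulators had 9 contigs, 5 of a Runt-related transcription factor (3 of RUNX1 and 2 of RUNX3, summing to 16.98 to 33.9 CPM and 18.7 to 32.5 CPM in a fish) and 4 of the Transcriptional activator Myb (6.42 to 21.6 CPM). CPM are counts scaled to 1000000 per library. The myeloid group had 32, of which 12 were Transcription factor PU.1 (282.3 to 387.7 CPM), 1 was CCAAT/enhancer-binding protein alpha (C/EBP alpha), 2 were C/EBP beta and 17 matched Zinc finger protein Gfi-1. These 17 were 8 contigs of Gfi-1 (27.7 to 43.9 CPM) and 9 of Gfi-1b (17.03 to 46.1 CPM), which the same name takes in. The groups follow the searched names and not the role of each factor. RUNX3, which acts in T cells and natural killer cells, is thus counted with the stem cell regulators. Gfi-1b, of the red cell and platelet branch, is counted with the myeloid group. DNA-binding protein Ikaros had 7 contigs (95.6 to 135.6 CPM). The full names of GATA-1 (erythroid transcription factor), GATA-2 and GATA-3 matched no description. Contigs of GATA-2 and GATA-3 under shorter names are described after the members. A shorter name of GATA-1 was not searched, so whether it had contigs here is not known. Several contigs of 1 factor can be pieces of 1 mRNA, alleles or duplicate genes, and near-identical contigs can share reads, so contigs of a factor are not independent of each other. Contig lengths and genome positions were not used here, and levels are therefore compared between fish and never between factors.

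The libraries held 8259299 to 12228633 counts. The TMM factors by which they were scaled ran from 0.841 in SW1 fish 2 to 1.19 in SW1 fish 1. A lower factor raises every CPM of a fish. Along the first principal component (32.75% of the variance) FMC fish 2 lay at 142.7 and SW1 fish 1 at 116.2, far from the rest at -65.3 to -4.4. On the second (21.98% of the variance) SW1 fish 2 lay at 133.9, against -65.5 to 35.65 for the other fish. Markers of red blood cells (hemoglobin, erythroid aminolevulinate synthase, band 3 and ankyrin-1, 23 contigs) summed to 30670 CPM in FMC fish 2 and 7536 CPM in SW1 fish 1, against 2075 to 4161 CPM in the other 7. In SW2 fish 1, 16.5% of the counts lay on 1 contig named after a reading frame antisense to ribosomal RNA, against 0.395 to 1.44% elsewhere. The labelled tissue showed its defining cells in every fish, with granulocyte markers at 9088 to 15160 CPM, B cell markers at 4507 to 13350 CPM and markers of the steroid-making interrenal cells at 442 to 3514 CPM. The interrenal sums were 442 to 2090 CPM in FMC, 1090 to 2029 CPM in SW1 and 1558 to 3514 CPM in SW2. In a whole tissue, fewer cells of a type and less RNA per cell cannot be told apart.

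Summed over their contigs, the regulators differed between fish to unlike extents. From the lowest to the highest fish, PU.1 differed by 1.37 times, Ikaros by 1.42 times and Gfi-1 by 1.58 times. RUNX3 differed by 1.74 times, C/EBP alpha by 1.84 times, RUNX1 by 1.995 times and C/EBP beta by 2.01 times. Myb had the widest range, 3.37 times, followed by Gfi-1b at 2.70 times. The spread between fish of a diet, as an SD of log2 CPM, had a median of 0.37 over the 48 contigs and of 0.47 over all contigs. Among contigs with at least 10 counts in every fish, which 33 members were, the medians were 0.33 and 0.37.

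**Figure D1:**
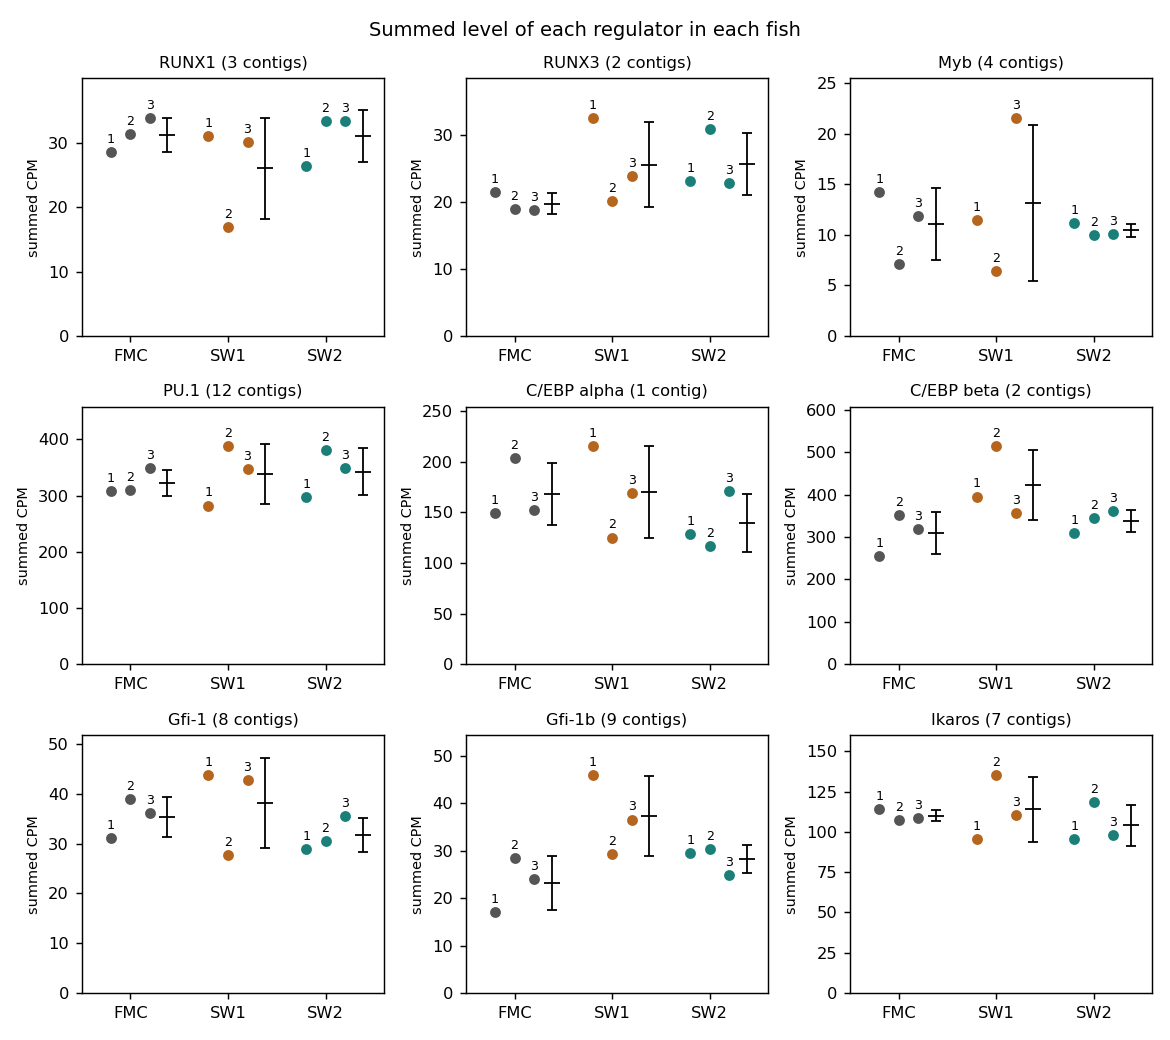
Summed CPM of each regulator (y axis, from 0) in each fish (points, numbered within a diet), with the mean ± SD of the 3 fish of a diet as a black bar. The diets overlapped for most regulators, and RUNX1 was lowest in SW1 fish 2 at 16.98 CPM. Gfi-1b and, by a narrow gap that depends on the scaling, C/EBP beta were above every FMC fish in each of the SW1 fish.

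RUNX1, the DNA-binding part of core-binding factor that is needed for the first blood stem cells, was carried mainly by contig 8580. It measured 22.2, 25.1 and 29.6 CPM in the FMC fish, 22.7, 12.0 and 24.3 CPM in the SW1 fish and 20.6, 25.4 and 26.6 CPM in the SW2 fish. A single fish, SW1 fish 2, lay far below the others, and the diets overlapped. In log2 terms the fold change was -0.38 (SE 0.34) for SW1 against FMC and -0.08 (SE 0.22) for SW2 against FMC. The other RUNX1 contigs, 54403 and 63375, did not share the low value of SW1 fish 2 to that extent, at 3.88 and 1.07 CPM within ranges of 3.14 to 6.93 CPM and 0.871 to 1.78 CPM.

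RUNX3, a relative of RUNX1 that acts in T cells and natural killer cells, had a summed level of 19.7 ± 1.55 CPM in FMC, 25.5 ± 6.34 CPM in SW1 and 25.6 ± 4.63 CPM in SW2 (SD, n = 3 each). The SW2 fish lay above all FMC fish, at 22.8 to 30.9 CPM against 18.7 to 21.5 CPM. For contig 27123 the log2 fold change was 0.38 (SE 0.22) in SW2 vs. FMC and 0.35 (SE 0.31) in SW1 vs. FMC. For contig 43465 these were 0.35 (SE 0.32) and 0.42 (SE 0.33). None of the 4 passed an unadjusted p under 0.05.

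The 4 contigs of Myb, a regulator of immature, dividing blood cells that is shut off as they mature, fell into pairs with different patterns. Contig 48793, with the most counts, measured 4.65, 4.51 and 4.15 CPM in FMC, 5.77, 2.94 and 4.62 CPM in SW1 and 2.91, 5.97 and 5.52 CPM in SW2, with log2 fold changes of 0.01 (SE 0.34) for SW1 against FMC and 0.11 (SE 0.31) for SW2 against FMC. Contig 40980 was likewise spread over a narrow range, 1.01 to 2.47 CPM. The other pair swung widely between fish of the same diet.

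Contig 47382 measured 3.66, 0.693 and 4.38 CPM in FMC, 0.802 to 8.80 CPM in SW1 and 1.07 to 3.74 CPM in SW2, a ratio of 12.7 between the highest fish and the lowest. Contig 33241 measured 3.99, 0.347 and 2.36 CPM in FMC, 1.03, 0.668 and 6.62 CPM in SW1 and 3.32, 1.17 and 0.502 CPM in SW2. Both were highest in SW1 fish 3 and lowest in FMC fish 2, where they had 6 and 3 counts. Their log2 CPM had a Pearson r of 0.875 over the 9 fish, whereas r between either of them and contig 48793 was -0.0155 and -0.174. These r are descriptions over 9 libraries that all 4 contigs share. The spread within a diet, 1.28 and 1.45 as an SD of log2 CPM, included the largest of the 48 contigs, and no diet stood apart, with log2 fold changes between -0.46 and 0.45 against FMC and SEs of 0.57 to 0.81. The pair was singled out after its values were seen.

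**Figure D2:**
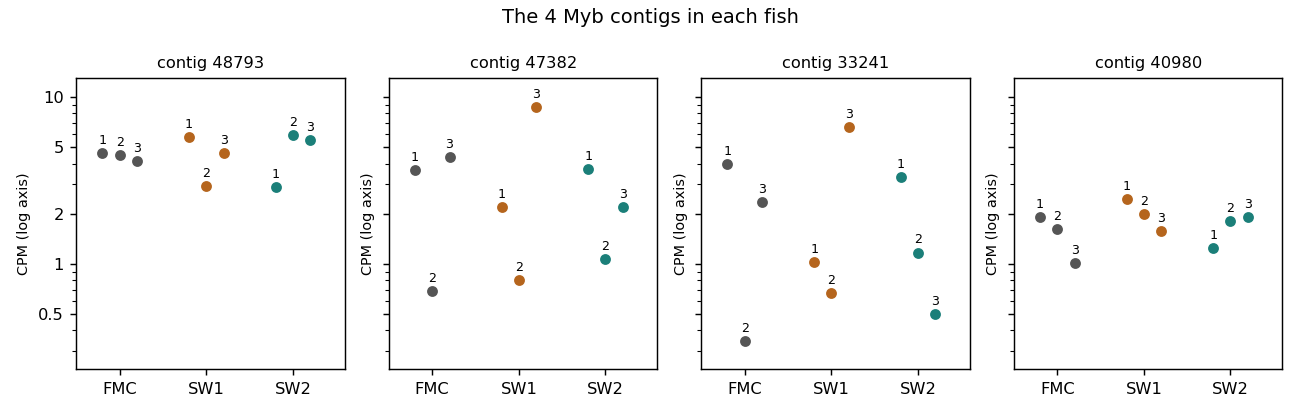
CPM of the 4 Myb contigs on a shared log axis, in each fish (points, numbered within a diet). Contigs 48793 and 40980 lie in narrow bands, and contigs 47382 and 33241 move over more than a factor of 10 between fish, with SW1 fish 3 highest and FMC fish 2 lowest in both.

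PU.1, the master regulator of macrophages that also acts in B cells and granulocytes, had the narrowest range of the summed levels. The median spread of its contigs within a diet, an SD of 0.32 in log2 CPM, was above the 0.22 of C/EBP beta. Contig 9235, with the most counts, measured 112.2, 99.6 and 104.3 CPM in FMC, 95.8, 146.7 and 114.7 CPM in SW1 and 103.6, 130.8 and 108.3 CPM in SW2. SW1 fish 2 was highest and SW1 fish 1 lowest, so the SW1 group spanned all other fish. The log2 fold changes were 0.17 (SE 0.31) for SW1 against FMC and 0.12 (SE 0.20) for SW2 against FMC. Over the 12 contigs, the median log2 fold change was 0.04 in SW1 vs. FMC and 0.10 in SW2 vs. FMC, with 7 and 9 of 12 above 0. The summed level was 322.1 ± 23.2 CPM in FMC, 338.9 ± 53.1 CPM in SW1 and 342.1 ± 41.9 CPM in SW2 (SD, n = 3 each). The smallest unadjusted p of a PU.1 contig, for contig 15389 in SW2 vs. FMC, lay just above 0.05, with a log2 fold change of -0.84 (SE 0.38) and overlapping fish.

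C/EBP alpha, which starts the granulocyte programme, had 1 contig, 1939. It measured 149.5, 203.6 and 152.1 CPM in FMC, 215.1, 125.1 and 169.2 CPM in SW1 and 128.8, 117.1 and 171.3 CPM in SW2. The highest values were those of SW1 fish 1 and FMC fish 2, the same fish that stood apart on the first component. Its log2 fold change was 0.00 (SE 0.33) for SW1 against FMC and -0.28 (SE 0.23) for SW2 against FMC.

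C/EBP beta, which takes over from C/EBP alpha when granulocytes are made in an emergency and which is also induced in macrophages by LPS, had each SW1 fish above each FMC fish, on both of its contigs. Contig 1931 measured 124.3, 174.6 and 152.4 CPM in FMC, 207.7, 265.0 and 178.1 CPM in SW1 and 171.0, 185.2 and 183.8 CPM in SW2. Contig 6893 measured 131.6, 177.8 and 166.7 CPM in FMC, 187.5, 248.8 and 179.0 CPM in SW1 and 138.0, 158.8 and 177.3 CPM in SW2. The gaps between the groups were narrow, since SW1 fish 3 lay only just above FMC fish 2 on each contig in TMM-scaled CPM. The TMM factors of these fish were 1.02 and 1.05, and their RLE size factors were 1.03 and 1.04. Their order, and with it the separation of the groups, depends on the scaling. The log2 fold changes in SW1 vs. FMC, 0.52 (SE 0.32) for contig 1931 and 0.36 (SE 0.32) for contig 6893, did not pass an unadjusted p under 0.05 in edgeR. In SW2 vs. FMC they were 0.26 (SE 0.21) and -0.01 (SE 0.21), and SW2 vs. SW1 gave -0.27 (SE 0.26) and -0.38 (SE 0.26).

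It was asked whether the myeloid regulators moved over the 9 fish with the cells they are known for. The summed PU.1 level had no clear relation to the sum of 9 macrophage marker contigs (mannose receptor, MARCO, macrophage-expressed gene 1 and scavenger receptor), with a Pearson r of 0.10 (exact permutation p = 0.795) and a Spearman rho of 0.05 (exact permutation p = 0.912). C/EBP alpha and the sum of 24 granulocyte marker contigs had an r of 0.35 (exact permutation p = 0.359) and a rho of 0.05 (exact permutation p = 0.912). Both tests were two-sided, and the Benjamini-Hochberg adjusted p for r over these 2 relations were 0.795 and 0.718 by exact permutation. Without the 2 fish farthest from the median of the regulator, r was 0.506 for PU.1 and -0.00727 for C/EBP alpha. With each diet's mean subtracted, r was -0.11 (exact permutation p = 0.772) and 0.269 (exact permutation p = 0.48). With CPM not scaled by TMM, the r of C/EBP alpha was 0.704 (exact permutation p = 0.0308). The relations planned for GATA-1 with red cell markers and for GATA-3 with T cell markers were not run, as the full names matched no contig. The contigs that carry a shorter name of GATA-3, described below, were not used for this.

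Gfi-1b, a repressor needed for red cells and platelets, gave the member with the smallest unadjusted p in SW1 vs. FMC. Contig 7408, with the most counts of the 17 contigs of the name, measured 6.48, 13.8 and 11.7 CPM in FMC, 33.4, 15.8 and 23.9 CPM in SW1 and 16.3, 18.4 and 14.2 CPM in SW2. All 6 seaweed-fed fish lay above all 3 control fish, and SW1 fish 1 and 3 lay above the rest. The mean was 10.6 ± 3.74 CPM in FMC, 24.4 ± 8.83 CPM in SW1 and 16.3 ± 2.10 CPM in SW2 (SD, n = 3 each). The log2 fold change in SW1 vs. FMC was 1.19 (SE 0.39), with an unadjusted p of 0.00931 and an adjusted p of 1 from edgeR over all contigs. In SW2 vs. FMC it was 0.62 (SE 0.29, unadjusted p of 0.0536 from edgeR), and in SW2 vs. SW1 it was -0.58 (SE 0.33, unadjusted p of 0.0999 from edgeR). The 2 comparisons with FMC share the 3 control fish. Without SW1 fish 1, the SW1 vs. FMC value was 0.91 (SE 0.38). Without both fish that stood apart on the first component it was 1.15 (SE 0.34). The NCBI record of the same name, described at the end, had a value of the opposite sign, -0.91 (SE 0.48).

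One contig of uromodulin, a protein of kidney tubules, moved with contig 7408 across the diets. The tubule markers, 3 contigs of uromodulin and LRP2, summed to 47.0, 77.9 and 64.3 CPM in FMC, 166.7, 103.9 and 132.1 CPM in SW1 and 66.8, 90.4 and 94.2 CPM in SW2, so that SW1 fish 1 and 3 were highest here too. Nearly all of the sum came from the uromodulin contig 6827, at 42.6 to 74.3 CPM in FMC, 100.9 to 162.1 CPM in SW1 and 63.6 to 92.0 CPM in SW2. The other pair of contigs (40374 and 51611) overlapped between SW1 and FMC, with log2 fold changes of 0.14 (SE 0.37) and -0.24 (SE 0.49) there and of -0.24 (SE 0.34) and -1.01 (SE 0.51) in SW2 vs. FMC. Their part in the difference of contig 7408 was not tested.

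Of the other 8 Gfi-1b contigs, 67273 was the one with the same separation of the groups. It lay higher in the SW1 fish (0.412 to 0.802 CPM) and the SW2 fish (0.401 to 0.640 CPM) than in the FMC fish (0.166 to 0.231 CPM) at few counts, with log2 fold changes of 1.31 (SE 0.69) and 1.29 (SE 0.62). Contigs 65647 and 55960 were highest in SW1 fish 1, as contig 7408 was, at 2.27 and 3.16 CPM, with log2 fold changes of 1.22 (SE 0.56) and 1.04 (SE 0.68) in SW1 vs. FMC and overlapping groups. Contig 18192 was lowest in SW1 fish 1, the highest fish for contig 7408, at 1.44 CPM against 3.58 to 8.56 CPM. Contig 55667 was highest in FMC fish 2, at 7.51 CPM against 1.92 to 4.15 CPM. The log2 CPM of contig 7408 had an r over the 9 fish of 0.696 with contig 55960, 0.563 with 67273, 0.529 with 65647, 0.49 with 84464 and 0.0239 with 55667, and of -0.454 to -0.3 with the other 3. Of the 9 contigs, 6 were above 0 in SW1 vs. FMC and 5 in SW2 vs. FMC, and the summed level was 23.2 ± 5.75 CPM in FMC, 37.3 ± 8.42 CPM in SW1 and 28.2 ± 3.01 CPM in SW2 (SD, n = 3 each), of which contig 7408 made up the largest share.

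Gfi-1, the repressor that turns precursors towards neutrophils and that also acts in lymphocytes, had most of its contigs lower with the blend, without a contig passing an adjusted p in edgeR. In SW2 vs. FMC 7 of its 8 contigs were below 0, with a median log2 fold change of -0.40, and in SW2 vs. SW1 7 of 8 were below 0, with a median of -0.46. In SW1 vs. FMC 5 of 8 were above 0, with a median of 0.09. The summed level was 35.4 ± 3.99 CPM in FMC, 38.1 ± 9.05 CPM in SW1 and 31.7 ± 3.47 CPM in SW2 (SD, n = 3 each), and the diets overlapped. These comparisons share fish, and contigs of 1 factor are not independent, so the 3 counts are not separate evidence.

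Contig 50369 of Gfi-1 measured 4.90, 5.78 and 3.81 CPM in FMC, 4.60, 4.41 and 4.53 CPM in SW1 and 2.39, 2.99 and 3.51 CPM in SW2. All 3 SW2 fish lay below all 6 other fish. The log2 fold change in SW2 vs. FMC was -0.70 (SE 0.29), with an unadjusted p of 0.0343 and an adjusted p of 0.822 from edgeR over all contigs. In SW2 vs. SW1 it was -0.61 (SE 0.29, unadjusted p of 0.0552 from edgeR).

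Contig 61824 of Gfi-1 measured 3.07, 6.47 and 5.61 CPM in FMC, 6.11, 5.35 and 6.97 CPM in SW1 and 2.70, 3.73 and 4.72 CPM in SW2. The SW2 fish lay below all SW1 fish but overlapped with FMC, where fish 1 was low. SW2 vs. SW1 gave a log2 fold change of -0.73 (SE 0.33, unadjusted p of 0.0454 from edgeR). Contig 34519, the Gfi-1 contig with the most counts, showed no such order, at 8.89 to 12.7 CPM in FMC, 9.49 to 14.0 CPM in SW1 and 12.2 to 13.3 CPM in SW2.

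**Figure D3:**
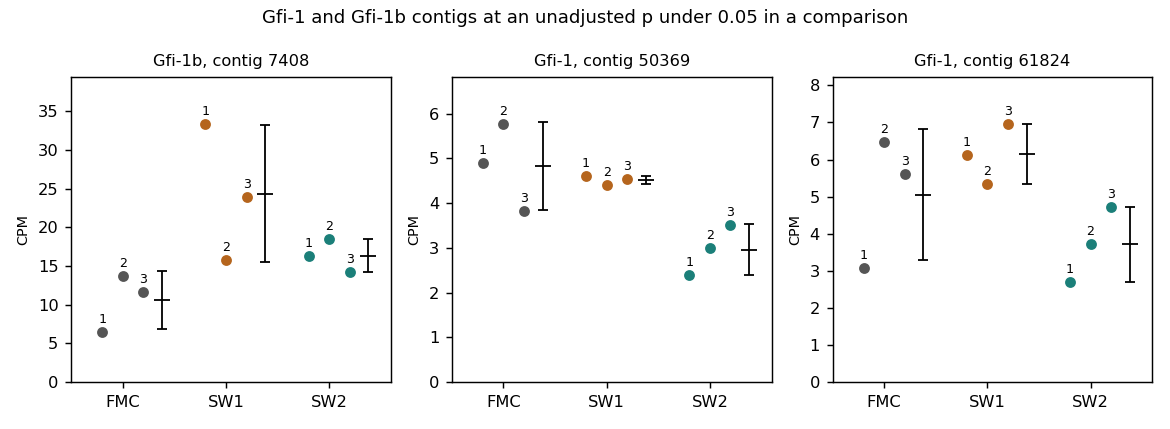
CPM (y axis, from 0) of the Gfi-1b contig 7408 and the Gfi-1 contigs 50369 and 61824 in each fish (points, numbered within a diet), with the mean ± SD of the 3 fish of a diet as a black bar. The SW1 and SW2 fish all lie above the FMC fish for contig 7408, and the SW2 fish all lie below the other 6 for contig 50369.

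Ikaros, the zinc finger factor that commits precursors to the lymphoid branch, was flat over the diets. Contig 5502, with the most counts, measured 49.4, 42.6 and 48.6 CPM in FMC, 41.1, 63.1 and 46.5 CPM in SW1 and 37.9, 50.1 and 40.2 CPM in SW2. SW1 fish 2 was highest, and the diets overlapped. The log2 fold changes were 0.09 (SE 0.31) for SW1 against FMC and -0.13 (SE 0.21) for SW2 against FMC. The 7 contigs together measured 110.1 ± 3.56 CPM in FMC, 114.0 ± 20.1 CPM in SW1 and 104.0 ± 12.7 CPM in SW2 (SD, n = 3 each), with median log2 fold changes of -0.12 and -0.02 against FMC. SW1 fish 2 was thus the highest fish for Ikaros, PU.1 and C/EBP beta and the lowest for RUNX1, Myb and Gfi-1, each as a sum over contigs. These are ranks of TMM-scaled CPM, and this fish had the lowest TMM factor, 0.841, which raises its CPM. The part of the scaling in the highest ranks was not tested.

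Read together, 0 of the 48 members passed an adjusted p under 0.05 in any comparison in edgeR. Over all contigs the share was 0.00343% in SW1 vs. FMC, 0% in SW2 vs. FMC and 0.00114% in SW2 vs. SW1, or 3, 0 and 1 contigs. At an unadjusted p under 0.05 there was 1 member in each comparison, or 2.08% of 48, against 1.68%, 6.02% and 5.8% of all contigs. DESeq2 called 0 members in every comparison, and limma voom with quality weights called 2 in SW2 vs. SW1 (the Gfi-1 contig 61824 and the PU.1 contig 17828) and 0 in the others. Over all contigs with an adjusted p, DESeq2 called 0.0342%, 0.0598% and 0.0549% and voom called 0.191%, 0.173% and 7.03% in SW1 vs. FMC, SW2 vs. FMC and SW2 vs. SW1. The median log2 fold change of the members was 0.08 in SW1 vs. FMC, 0.00 in SW2 vs. FMC and -0.08 in SW2 vs. SW1, with 30, 24 and 19 of 48 above 0. For all contigs the medians were -0.01, 0.00 and -0.01, with 48.3%, 50.3% and 49.5% above 0.

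In TMM-scaled CPM, the 3 fish of 1 diet lay fully above or below the 3 of the other for 4 members in SW1 vs. FMC. All were higher, the Gfi-1b contigs 7408 and 67273 and, by a narrow gap that depends on scaling, the C/EBP beta contigs 1931 and 6893. That was 8.33% of the members, against 5.53% of all contigs (2.92% higher and 2.62% lower). In SW2 vs. FMC 5 members did so, 10.4% against 11.7% of all contigs (5.69% higher and 6.03% lower). Contigs 27123 of RUNX3 and 7408 and 67273 of Gfi-1b were higher, and contigs 50369 and 3836 of Gfi-1 were lower. In SW2 vs. SW1 4 members did so, 8.33% against 13.6% of all contigs (6.74% higher and 6.9% lower). Contig 6681 of PU.1 was higher in SW2, and contigs 6893 of C/EBP beta and 50369 and 61824 of Gfi-1 were lower. The median SE of a member was 0.35 in SW1 vs. FMC and 0.30 in SW2 vs. FMC on the log2 scale. Differences of about that size were not detectable with 3 fish per diet. Much larger ones also did not pass an adjusted p, such as 1.19 (SE 0.39) for contig 7408 in SW1 vs. FMC. The lack of called members therefore does not show that the regulators were unchanged.

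**Figure D4:**
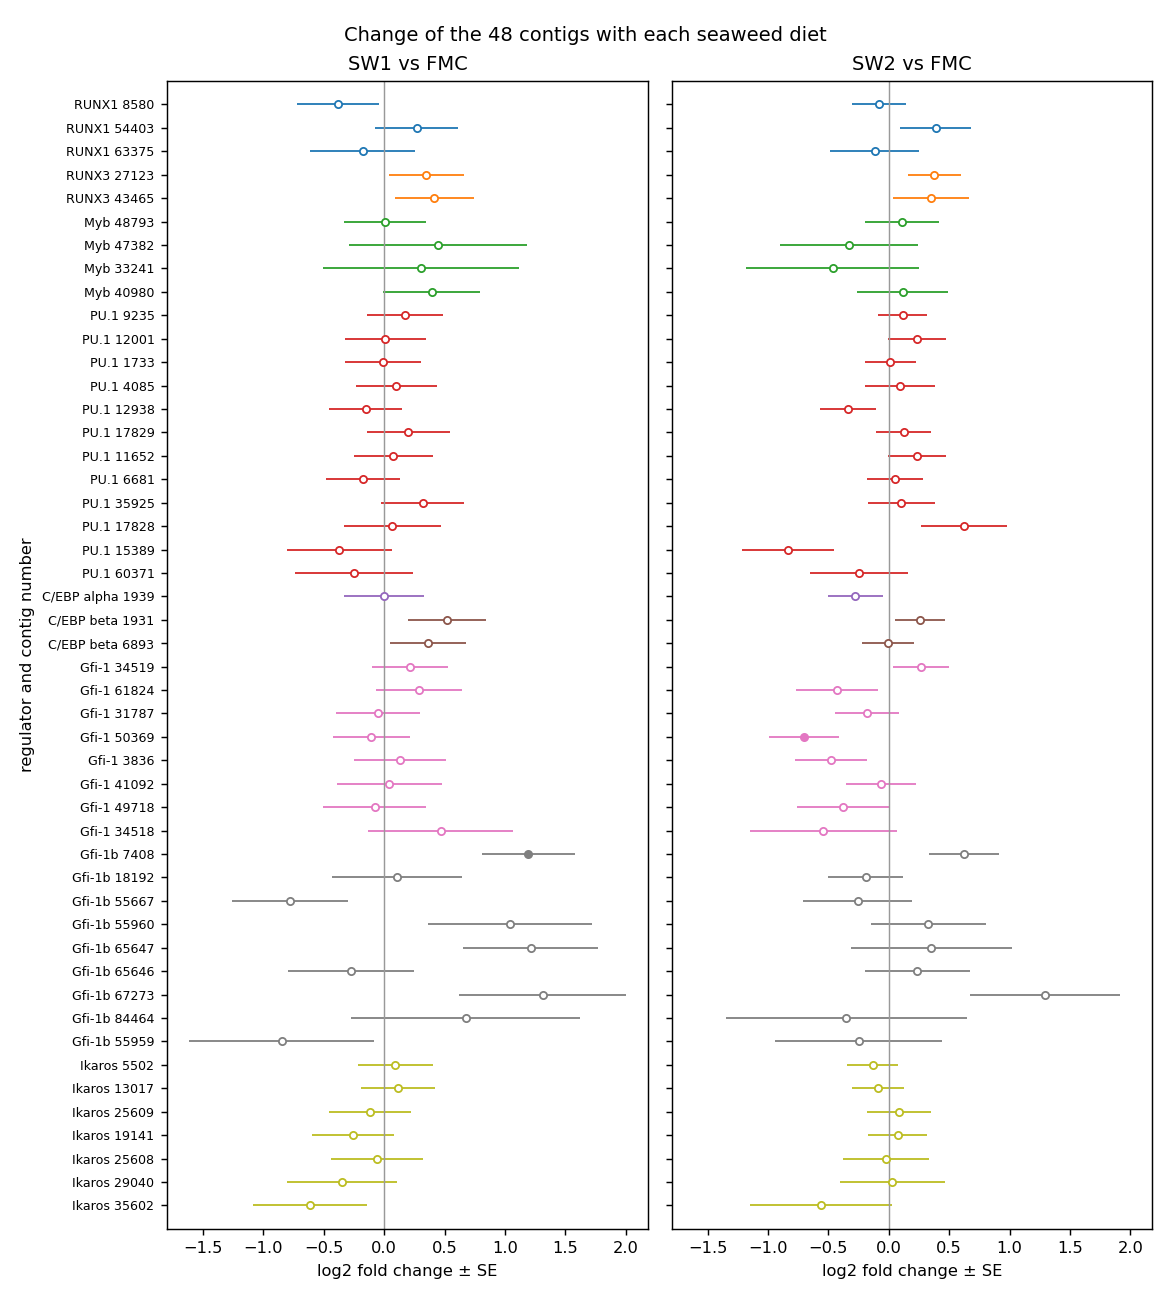
Log2 fold change ± SE of the 48 contigs (rows, coloured by regulator) in SW1 vs. FMC (left) and SW2 vs. FMC (right), with filled points for an unadjusted p under 0.05. A single point is filled on each side, the Gfi-1b contig 7408 at 1.19 and the Gfi-1 contig 50369 at -0.70.

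GATA-2 and GATA-3 were present under other names than those searched, as 15 further contigs that were picked out after their values were seen and are not members. Contig 16834 of GATA-3 had the most counts and was even, at 46.2 to 54.1 CPM in FMC, 46.3 to 57.7 CPM in SW1 and 51.4 to 60.3 CPM in SW2. Contig 21363, also named GATA-3, measured 14.4, 71.8 and 17.4 CPM in FMC, 20.9, 13.5 and 11.5 CPM in SW1 and 13.7, 16.3 and 11.2 CPM in SW2. Contig 16835 of GATA-2 measured 7.98, 31.2 and 10.1 CPM in FMC, 12.1, 6.82 and 8.19 CPM in SW1 and 10.6, 8.74 and 8.73 CPM in SW2. FMC fish 2 was thus far above every other fish on contigs 21363 and 16835, and SW1 fish 1 came second on both. The other GATA contigs did not share this order as a set. FMC fish 2 was also highest on contigs 43331 and 82324 (4.97 and 0.925 CPM). It was lowest on contigs 33799, 62272 and 78201 (3.12, 0.231 and 0.116 CPM). On the GATA-2 contigs 84089 and 62272, at few counts, all SW1 fish lay above all FMC fish, with log2 fold changes of 1.29 (SE 0.54) and 0.77 (SE 0.58).

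On contigs 21363 and 16835 FMC fish 2 came first and SW1 fish 1 second. FMC fish 2 was also first on contig 3948 of TAL1, but SW1 fish 1 and 2 were nearly level behind it there. TAL1 is a partner of the GATA factors in red cell precursors. Contig 3948 measured 12.9, 99.4 and 16.7 CPM in FMC, 23.8, 23.5 and 14.9 CPM in SW1 and 13.0, 14.1 and 13.6 CPM in SW2. FMC fish 2 and SW1 fish 1 were also the fish with the most red cell marker counts. The log2 fold change of the TAL1 contig in SW2 vs. FMC, -1.66 (SE 0.63, unadjusted p of 0.0221 from edgeR), went with the value of FMC fish 2, as the other FMC fish, at 12.9 and 16.7 CPM, overlapped with the SW2 fish. The red cell markers were highest in the same fish as contigs 21363, 16835 and 3948, and their part in the differences between diets was not tested. Among the members, the Gfi-1b contig 55667 was the one that was highest in FMC fish 2 by a clear margin.

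**Figure D5:**
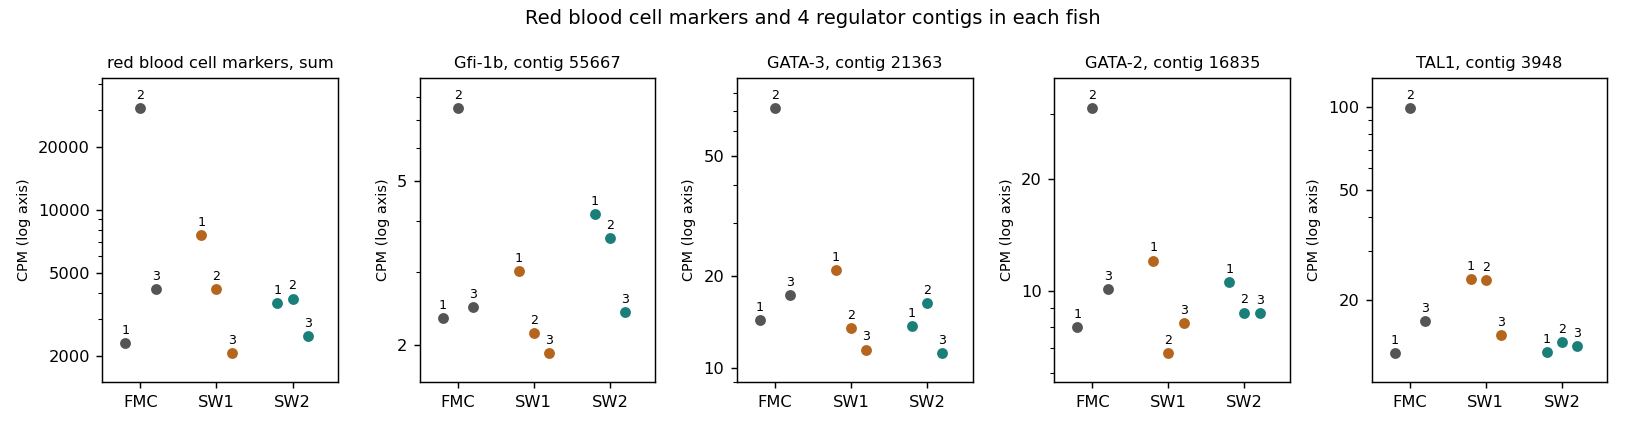
Summed CPM of the 23 red blood cell marker contigs and CPM of 4 regulator contigs, each on its own log axis, in each fish (points, numbered within a diet). FMC fish 2 is the highest point in every panel, at 30670 CPM for the markers, 7.51 CPM for Gfi-1b, 71.8 CPM for GATA-3, 31.2 CPM for GATA-2 and 99.4 CPM for TAL1. The 4 regulator contigs were chosen because FMC fish 2 was their highest fish, so their panels do not test this.

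Other regulators of the same pathways were read from lists of names, and 0 contigs of any list passed an adjusted p under 0.05 in edgeR or DESeq2. By limma voom with quality weights 0 passed in both comparisons with FMC, and in SW2 vs. SW1 there were 2 contigs of stem cell and red cell, 4 of myeloid and 5 of lymphoid regulators and 3 of growth factor receptors, where voom called 7.03% of all contigs. At an unadjusted p under 0.05, the counts below stand against 1.68% of all contigs in SW1 vs. FMC and 6.02% in SW2 vs. FMC. The contigs described were picked by their p. Of 48 contigs of stem cell and red cell and platelet regulators, 0 were higher and 1 was lower at an unadjusted p under 0.05 in SW1 vs. FMC, and 0 and 5 in SW2 vs. FMC, with median log2 fold changes of -0.03 and -0.04. The 5 included 2 contigs of ETV6, a repressor needed for stem cells in the bone marrow of mice. Contig 33869 measured 8.97, 12.1 and 8.08 CPM in FMC and 5.61, 5.12 and 6.02 CPM in SW2, a log2 fold change of -0.80 (SE 0.25). Contig 33097 measured 9.14, 8.78 and 10.1 CPM in FMC and 6.12, 6.08 and 6.72 CPM in SW2, a log2 fold change of -0.56 (SE 0.23). On both the groups were fully apart, and of all 7 ETV6 contigs 3 were below 0 in SW2 vs. FMC. Another TAL1 contig, 2681, was lower in all SW2 fish (10.1 to 16.1 CPM) than in all 6 other fish (18.4 to 23.1 CPM). It showed no excess in FMC fish 2. Among all 5 TAL1 contigs, 0 were above 0 in SW2 vs. FMC, and 3 were lower at an unadjusted p under 0.05 in edgeR. For SW2 vs. SW1, 0 of the 5 were above 0, and for SW1 vs. FMC 2 were.

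Of 40 contigs of other myeloid regulators, 1 was higher and 0 lower at that p in SW1 vs. FMC, and 3 and 2 in SW2 vs. FMC, with medians of 0.03 and -0.02. C/EBP delta, a relative of C/EBP beta that is induced in inflammation, measured 3.57, 5.89 and 6.51 CPM in FMC, 12.6, 7.75 and 7.58 CPM in SW1 and 7.27, 9.49 and 7.62 CPM in SW2 on contig 48925. All seaweed-fed fish lay above all controls, with log2 fold changes of 0.81 (SE 0.35, unadjusted p of 0.0418 from edgeR) and 0.62 (SE 0.28, unadjusted p of 0.0523 from edgeR). KLF2, known for resting T cells and the lining of blood vessels, was 144.9 CPM in FMC fish 2 against 14.9 to 44.1 CPM elsewhere on contig 34841. Contig 18781, also named KLF2, was lower in all SW2 fish (0.104, 0.533 and 0.702 CPM) than in all 6 other fish (0.925 to 1.57 CPM), with a log2 fold change of -1.55 (SE 0.56) in SW2 vs. FMC and no excess in FMC fish 2. KLF2 made up 14 of the 40 contigs, and the 2 lower ones in SW2 vs. FMC were these KLF2 contigs. Of all 14 KLF2 contigs, 7 were above 0 in SW1 vs. FMC and 5 in SW2 vs. FMC.

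Of 51 contigs of lymphoid regulators, 2 were higher and 3 lower in SW1 vs. FMC, and 5 higher and 1 lower in SW2 vs. FMC, at an unadjusted p under 0.05. The medians were -0.21 and 0.10, and 38 of 51 were above 0 in SW2 vs. SW1 with a median of 0.25, against 49.5% of all contigs above 0. Among names with at least 5 contigs, these were 12 of 12 for E2-alpha, 6 of 6 for PRDM1, 5 of 5 for COE1 and 5 of 12 for BCL6. Contigs of 1 factor are not independent, so the 38 do not stand for as many factors. PRDM1, which ends the B cell programme as plasma cells form, measured 1.41, 1.04 and 2.13 CPM in FMC, 4.33, 2.41 and 2.61 CPM in SW1 and 4.05, 3.41 and 3.81 CPM in SW2 on contig 58876. Its log2 fold changes were 1.03 (SE 0.41) and 1.29 (SE 0.33). Another PRDM1 contig, 33724, was also higher in all SW2 fish (2.91 to 3.95 CPM) than in the FMC fish (1.502 to 2.69 CPM), but SW1 overlapped with FMC there, and SW1 fish 2 was the lowest of the 9 fish at 1.34 CPM. Of all 6 PRDM1 contigs, 4 were above 0 in SW1 vs. FMC and 6 in SW2 vs. FMC. BCL6, the factor of germinal centre B cells in mammals that represses PRDM1, measured 1.08, 1.39 and 1.68 CPM in FMC, 4.94, 2.00 and 2.09 CPM in SW1 and 2.80, 2.77 and 2.81 CPM in SW2 on contig 49711. On contigs 58876 and 49711 all seaweed-fed fish lay above all controls. Of all 12 BCL6 contigs, 6 were above 0 in each comparison with FMC.

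E2-alpha (TCF3), which acts with Ikaros in early lymphocytes, had every SW1 fish below every FMC fish on contigs 29584 (1.74 to 3.84 CPM against 4.15 to 7.63 CPM), 16926 (2.41 to 2.81 CPM against 4.04 to 5.32 CPM) and 49527 (3.16 to 3.40 CPM against 4.49 to 5.65 CPM). Of all 12 E2-alpha contigs, 4 were fully lower in SW1 vs. FMC, where 2.62% of all contigs were, and 0 were above 0. The SW2 fish overlapped with the FMC fish on each of these contigs, at 4.92 to 6.85 CPM on the last. Of 40 contigs of blood cell growth factor receptors, 0 passed an unadjusted p under 0.05 in SW1 vs. FMC and 1 did in SW2 vs. FMC. This was contig 24837 of the macrophage growth factor receptor, at a log2 fold change of 0.52 (SE 0.23). It measured 22.4 to 30.6 CPM in FMC, 49.6, 18.2 and 16.1 CPM in SW1 and 31.5 to 41.6 CPM in SW2. The highest and the lowest of the 9 fish were thus SW1 fish. Of all 12 contigs of this receptor, 8 were above 0 in SW1 vs. FMC and 7 in SW2 vs. FMC. Macrophage markers were, like contig 24837, higher in all SW2 fish than in all FMC fish. They summed to 1847 to 2387 CPM in FMC, 2174 to 3085 CPM in SW1 and 2655 to 3484 CPM in SW2. Of these 9 contigs 8 were above 0 in SW2 vs. FMC, with a median log2 fold change of 0.55, and 4 were higher at an unadjusted p under 0.05 in edgeR. Their part in the difference of contig 24837 was not tested.

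For each name, the contigs with the most similar course over the 9 fish were sought among 20137 non-member contigs with at least 10 counts in every fish and a description that names a protein. All contigs compared come from the same 9 libraries, and the highest of so many r is large by the search alone, so the values are descriptions. For the Gfi-1b contig 7408 they were M160, a scavenger receptor (r = 0.976), transmembrane protein 68 (r = 0.974) and the calcium channel TPC2 (r = 0.968). For the RUNX1 contig 8580 they were TRAPPC8 (r = 0.988), rootletin (r = 0.975) and ARIH2 (r = 0.953), all lowest in SW1 fish 2.

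The PU.1 contig 9235 was closest to PPAPDC1A (r = 0.973), TOM34 (r = 0.96) and gamma-glutamyl hydrolase (r = 0.958), and the Ikaros contig 5502 to cullin-2 (r = 0.955), caldesmon (r = 0.95) and hippocalcin-like protein 1 (r = 0.923). Near the C/EBP beta contig 1931 were hematopoietic prostaglandin D synthase (r = 0.962) and barrier-to-autointegration factor (r = 0.953). The C/EBP alpha contig 1939 was closest to FAM149B1 (r = 0.953) and the Myb contig 48793 to diacylglycerol kinase eta (r = 0.956). For the variable Myb contigs, sought after their values were seen, the closest were E2F4 for contig 47382 (r = 0.95) and a non-erythrocytic spectrin beta chain for contig 33241 (r = 0.958).

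The authors also counted the reads against public Salmo salar cDNA sequences of NCBI, where 7 sequences with one of the 10 names had at least 20 counts, 6 of PU.1 and 1 of Gfi-1b. The PU.1 sequence with the most counts had 1683 to 2826 counts per fish and log2 fold changes of 0.04 (SE 0.26) for SW1 against FMC and 0.16 (SE 0.22) for SW2 against FMC. A pair of PU.1 sequences was present in some fish and near 0 in others. The first had 0, 27 and 1 counts in FMC, 4, 18 and 33 in SW1 and 0, 3 and 36 in SW2, and the second had 20, 0 and 23, then 30, 13 and 0, then 14, 10 and 0. Fish with many counts of the first mostly had few of the second, and in FMC fish 2, SW1 fish 3 and SW2 fish 3 the second was at 0.

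The Gfi-1b sequence, a record labelled as a pseudogene, had 158, 297 and 102 counts in FMC, 213, 67 and 89 in SW1 and 114, 104 and 84 in SW2. FMC fish 2 was highest here too, at 131.4 CPM against 29.1 to 62.0 CPM elsewhere, as for contig 55667 and unlike contig 7408. In SW1 vs. FMC its log2 fold change was -0.91 (SE 0.48) and that in SW2 vs. FMC -0.84 (SE 0.41), and neither passed an unadjusted p under 0.05 in edgeR.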

How the data were processed

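Head kidney RNA of 9 salmon was sequenced by the authors from Illumina TruSeq libraries. Per the submitters' processing notes the reads were aligned with TopHat2 2.0.5, filtered with SAMtools 0.1.18 and counted per contig with HTSeq 0.5.3p9. The deposited values used here are raw counts per contig and fish, in tables for each seaweed diet against FMC on a de novo assembly and on NCBI sequences. The authors' fold changes and p-values from DESeq in the same tables were not used.

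Members were found by 10 names in the description, with low lines read as spaces and a run of them as 1 space. With each low line read singly, 30 of the 48 are found. The members and lists were chosen with earlier results of these data known, and list names were matched to the start of the protein name after the descriptions had been seen. Library scaling (TMM) and the quasi-likelihood test were those of edgeR 4.0.16 under R 4.3.3. A contig needed 10 counts in total in the fish fitted, and p-values were adjusted by Benjamini-Hochberg over every contig in the fit (87494 in SW1 vs. FMC, 87309 in SW2 vs. FMC and 87598 in SW2 vs. SW1), with a threshold of 0.05. SW2 vs. SW1 was fitted with all 9 fish, the others with 6. CPM are TMM-scaled, and log2 CPM have a prior count of 2. The strand setting of the counting was not given in the sources used here. Values are given in every fish for the contig with the highest count total of each name and for members at an unadjusted p under 0.05, and up to 4 contigs per list were named by their p. Any further member contig that the text names was chosen after its values were seen. Alternatives used another library scaling in edgeR (RLE size factors), DESeq2 1.42.0, limma 3.58.1 voom, other filters, a replicate block, left-out fish and the NCBI sequences. The steps were tested on simulated counts. Between fish of 1 diet, chi-square divided by its degrees of freedom was 5.38 to 34.4, so no library was a repeat of another. Contigs with no description held 1.78 to 2.69% of the counts.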

Additional observations from a re-analysis of the deposited data

How the results depend on the processing

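Counts of members with an adjusted p under 0.05 stayed at 0 under every alternative run, except for limma voom with quality weights in SW2 vs. SW1, with 2. Members at an unadjusted p under 0.05 numbered 1 in each comparison. In SW1 vs. FMC there were 2 with RLE size factors in edgeR, 7 with voom and 2 with the replicate block. There were 2 without both fish that stood apart on the first component, an alternative chosen after seeing the data. In SW2 vs. FMC there were 0 with DESeq2, 2 with RLE size factors in edgeR, 2 without a filter, 2 with at least 10 counts in 3 fish and 7 with voom. In SW2 vs. SW1 there were 0 with DESeq2, 2 with at least 10 counts in 3 fish, 15 with voom and 3 without both fish. Leaving out 1 fish gave 1 to 3, 0 to 3 and 0 to 5 members, with 3 without SW1 fish 2, 3 without FMC fish 2 and 5 without SW1 fish 2 as the highest. The share of all contigs at that p is given here for the main fits only (1.68%, 6.02% and 5.8%). Counts under the alternatives therefore cannot be read as a result about the members. In SW2 vs. SW1 voom called 7.03% of all contigs even at an adjusted p under 0.05.

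Over all contigs, 3, 0 and 1 were called. DESeq2 called 27, 37 and 35, and voom called 167, 151 and 6159. The replicate block gave 0 in SW1 vs. FMC and 10 in SW2 vs. FMC, at least 10 counts in 3 fish gave 0 in SW1 vs. FMC, all 9 fish gave 1 in SW1 vs. FMC, the 6 seaweed-fed fish gave 2 in SW2 vs. SW1, and leaving out both fish gave 81 in SW1 vs. FMC and 52 in SW2 vs. SW1. Leaving out 1 fish gave 0 to 7, 0 to 7 and 0 to 9 contigs, highest without FMC fish 2, FMC fish 2 and SW1 fish 2. The causes were not tested. Same-numbered fish of different diets correlated between -0.308 and 0.183, and differently numbered ones between -0.384 and 0.477. These values gave no sign that the numbers pair the fish, but they cannot exclude a pairing.

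The relation of PU.1 to macrophage markers turned to -0.11 with diet means subtracted, and that of C/EBP alpha to granulocyte markers was 0.704 (exact permutation p = 0.0308) without TMM and -0.00727 without the 2 farthest fish. The log2 fold change of the Gfi-1b contig 7408 in SW1 vs. FMC stayed between 0.91 and 1.45 on the assembled contigs, and the NCBI sequence of the same name gave -0.91. In SW2 vs. FMC that sequence gave -0.84 against 0.62, and in SW2 vs. SW1 0.05 against -0.58. That of the Gfi-1 contig 50369 in SW2 vs. FMC stayed between -0.84 and -0.50, with an unadjusted p above 0.05 in DESeq2, voom and the block and without FMC fish 1 or 2 or SW2 fish 1 or 2 in turn. That of the Gfi-1 contig 61824 in SW2 vs. SW1 stayed between -0.94 and -0.53, with an adjusted p of 0.0261 from limma voom with quality weights and an unadjusted p above 0.05 in DESeq2 and without FMC fish 3, SW1 fish 1 or 3 or SW2 fish 1 or 2 in turn. The NCBI sequences were compared by name, for PU.1 and Gfi-1b only, since no other name with a described contig had 20 counts there. Contigs with fewer than 10 counts in some fish, 15 of 48, are limited most by depth.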
